A study of Homo sapiens with 16 samples.

Results

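Notch receptors, their ligands and their direct targets were described here as 10 genes: the receptors NOTCH1, NOTCH2 and NOTCH3, the ligands JAG1, JAG2, DLL1 and DLL4, and the targets HES1, HEY1 and HEY2. They are 10 of the 20007 protein-coding genes of the GENCODE release 44 annotation. A gene was scored by its merged H3K4me3 or H3K27me3 regions, that is, called peaks joined across libraries, lying within 3 kb of any of its annotated start sites. All 10 genes had at least 1 such H3K4me3 region, 11 regions in all, as did 66.9% of all protein-coding genes. Of them 4 also had H3K27me3 regions, 6 in all, where 13.8% of all protein-coding genes had one.

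CUT&RUN, in which a nuclease tethered to an antibody releases the DNA around a histone mark, was performed in MCF-10A, an immortalised and non-tumorigenic human breast epithelial cell line. Cells were exposed to vehicle (PBS) or to 5 mM octanoic acid (OA), a medium-chain fatty acid, for 24 h, with 3 libraries per mark and condition. Untreated cells gave 2 further H3K4me3 libraries and 2 libraries with a nonspecific IgG antibody. The comparison asks how OA exposure alters where these histone marks lie, in 1 cell line, and the peak files measure called enrichment, not expression.

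Notch receptors are cut after they bind a Jagged or Delta-like ligand on a neighbouring cell, and the freed intracellular part enters the nucleus and joins the DNA-binding protein RBPJ to switch on targets such as the HES and HEY repressors. In the mammary epithelium the pathway takes part in cell fate choice, including the balance of luminal and basal progeny. H3K4me3 is found at start sites of active or poised genes, and H3K27me3, laid down by Polycomb complexes, at repressed and developmental genes.

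Promoter sequences of 3 genes are shown because the calls described below lie over 2 of them, DLL4 and HEY2, and skirt the third, HES1. Each run is RefSeq sequence of GRCh38.p14, read 5′ to 3′ on the gene's own strand, from 250 bases before the start base through the first 20 bases from it. They lie at chr3:194135898-194136167 (HES1, plus strand), chr6:125749382-125749651 (HEY2, plus strand) and chr15:40929090-40929359 (DLL4, plus strand). Capitals mark TGGGAA on the shown strand, or TTCCCA where the match is on the other strand, the core letters of the RBPJ site.
HES1: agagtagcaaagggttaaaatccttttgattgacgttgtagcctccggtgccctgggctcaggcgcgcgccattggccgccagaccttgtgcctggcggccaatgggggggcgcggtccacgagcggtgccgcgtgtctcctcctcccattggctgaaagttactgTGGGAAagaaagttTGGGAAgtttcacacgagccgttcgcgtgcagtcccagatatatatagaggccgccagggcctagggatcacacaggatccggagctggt
HEY2: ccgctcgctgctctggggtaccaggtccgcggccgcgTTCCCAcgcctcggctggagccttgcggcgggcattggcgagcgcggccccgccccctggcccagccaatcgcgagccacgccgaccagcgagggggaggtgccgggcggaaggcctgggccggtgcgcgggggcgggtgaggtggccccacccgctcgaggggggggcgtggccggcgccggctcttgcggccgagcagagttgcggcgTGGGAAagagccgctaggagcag
DLL4: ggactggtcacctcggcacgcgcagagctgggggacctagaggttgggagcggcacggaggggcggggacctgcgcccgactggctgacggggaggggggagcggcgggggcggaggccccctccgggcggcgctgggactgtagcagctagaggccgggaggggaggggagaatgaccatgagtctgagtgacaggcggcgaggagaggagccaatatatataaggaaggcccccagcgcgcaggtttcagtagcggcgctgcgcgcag

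Of the 10 genes, 8 had a promoter window in the RefSeq table. The letters TGGGAA, searched on both strands of the full window of 250 bases before the start and 50 from it, occurred in HES1 and HEY2 and in none of the other 6. The HES1 matches began 84 and 70 bases before the start base, both on the plus strand. In HEY2 one began 213 bases before the start base, on the minus strand, and one 3 bases before it, so that the latter spans the start itself. Among 21613 windows of protein-coding genes, 22.7% held at least 1 match and 3.50% held 2 or more. CACGTG, the E box, was found in 0 of the 8 member windows and in 8.35% of all windows. CACGCG, a site for HES repressors, was found in 4 of the 8 (DLL4, HES1, JAG1 and JAG2) and in 14.3% of all windows. The 3 motifs share no position in these windows, and a match of letters is not a bound site.

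The H3K4me3 libraries held 19953, 16381 and 16086 peaks (vehicle 1, 2 and 3) and 17988, 17975 and 21033 peaks (OA 1, 2 and 3). Read totals are not held in peak files. As a stand-in for depth, the lowest background shared by at least 50 peaks, solved from the caller's fold and p-value, was 0.822, 0.775 and 0.450 reads in the vehicle libraries and 0.853, 0.633 and 0.722 in the OA libraries. Vehicle 3 thus stood apart as the shallowest, with a median peak of 559 bp against 736 to 1028 bp in the other 5, and values without it are given for NOTCH1, JAG1, JAG2, DLL1 at its canonical start, DLL4, HES1, HEY1 and HEY2. The H3K27me3 libraries held 18801, 47648 and 28850 peaks with vehicle and 32363, 25540 and 9091 with OA, so that OA 3 was the sparsest. Of the breast epithelial markers checked, KRT5, KRT17, KRT8, KRT18 and ITGA6 had an H3K4me3 call in all 6 libraries. KRT14, a basal keratin, had one in 2 vehicle and 0 OA libraries. CDH1 and EPCAM were called in 2 vehicle and 3 OA libraries, and TP63 in 2 of each. The 4 endothelial markers PECAM1, CDH5, VWF and TEK, and also PTPRC, CD3E, COL1A2, DCN and LUM, had no call in these 6 libraries. COL1A1 (2 vehicle, 3 OA), PDGFRB (1 and 1) and CD14 (3 and 3) were called.

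Taken gene by gene, 8, 7 and 6 of the 10 genes had an H3K4me3 peak in vehicle 1, 2 and 3, against 9, 10 and 10 in OA 1, 2 and 3. Of all protein-coding genes 64.4%, 62.2% and 57.6% had one in the vehicle libraries and 64.3%, 65.7% and 69.2% in the OA libraries. The untreated libraries had 6 and 5 of the 10 genes (53.2% and 48.9% of all), and each IgG library 0 (1.11% and 0.12%). NOTCH1, NOTCH2, JAG1, DLL1, HES1 and HEY1 were called in all 6 treated libraries (6 of 10 genes, beside 56.5% of all protein-coding genes), DLL1 through an alternative start site. All 3 OA libraries called 9 of the 10 genes (beside 63.1% of all protein-coding genes), and all 3 vehicle libraries called 6 (beside 56.8%). The genes outside that core of 6 were NOTCH3, JAG2, DLL4 and HEY2.

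**Figure D1:**
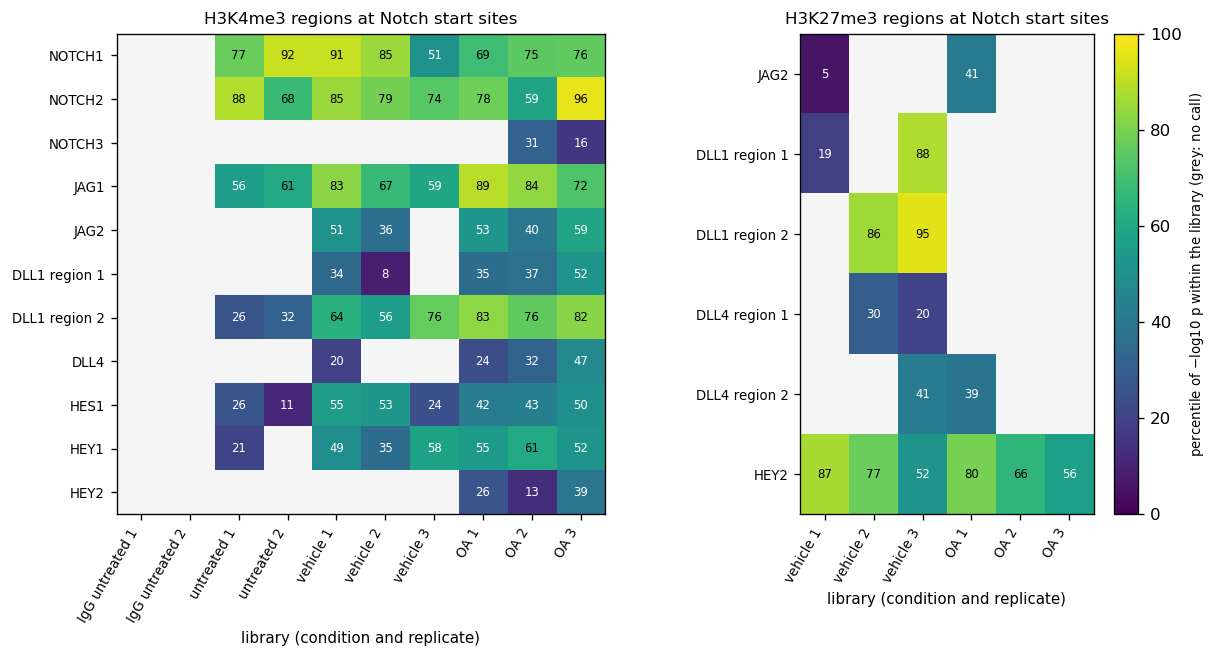
Strength of each merged region in each library, as the percentile of its −log10 p among all peaks of that library (colour and printed value; grey, no call), for the 11 H3K4me3 regions (left) and the 6 H3K27me3 regions (right). HEY2 H3K4me3 is coloured only in the 3 OA libraries, whereas its H3K27me3 region is coloured in all 6.

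Strength was compared as a rank, the percentile of a region's −log10 p among the peaks of its own library, with 0 for no call. Breadth was compared as called length, on the scale log2(bp + 100). Both were tested with limma across all merged regions of a mark with Benjamini-Hochberg adjustment. For H3K4me3, 36 of 18734 regions (0.192%) passed an adjusted p of 0.05 for rank and 0 (0.0%) for length. None of the 11 member regions passed for either measure. At an unadjusted limma p of 0.05, 2 member regions were below it for rank (DLL4 and HEY2), beside 2162 of all regions (11.5%). For length 3 were below it (DLL1 at its canonical start, DLL4 and HEY2), beside 1023 of all regions (5.46%). DLL4 and HEY2 had 1 and 0 vehicle calls where a region needed 2 libraries to be kept, so that both were tested only because of their OA calls and these counts are a description.

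In 3 of the 11 regions, again DLL1 at its canonical start, DLL4 and HEY2, every OA library ranked above every vehicle library, as did 10.1% of all H3K4me3 regions. In the same 3, every OA library was longer than every vehicle library, as were 9.02% of all regions. The opposite order held in 0 member regions for rank and 0 for length, beside 4.52% and 0.448% of all regions. Of the 3 regions above, DLL4 and HEY2 were kept only through their OA calls, as was NOTCH3 among the others, so that DLL1 was the 1 region of the 3 with calls in 2 vehicle libraries. These counts were larger without some libraries, given here with the share of all regions in the same order. The rank count above was 5 of 11 without vehicle 1 (23.6% of all regions), 5 of 11 without vehicle 3 (11.7%) and 5 of 10 without OA 2 (18.6%). Without vehicle 3, NOTCH1 and HES1 were in the opposite order, 2 of 11, beside 10.8% of all regions. Without vehicle 3 the length order below held in 12.5% of all regions and in 0 members, and the order above in 9.2% and in the same 3 members. The length count was 6 of 11 without vehicle 1 (17.7%) and 6 of 11 without OA 1 (32.9%). The called length was higher on average with OA in all 11 member regions, as it was in 74.1% of all regions, and the rank in 9 of 11, as in 59.9% of all regions. Without vehicle 3 the log2 length difference was below 0 at JAG1 (−0.063), HES1 (−0.42) and HEY1 (−0.018). With all libraries the median difference was 0.37 on the log2 length scale in the members and 0.18 over all regions, and for rank it was 14.9 and 2.85 percentile points.

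**Figure D2:**
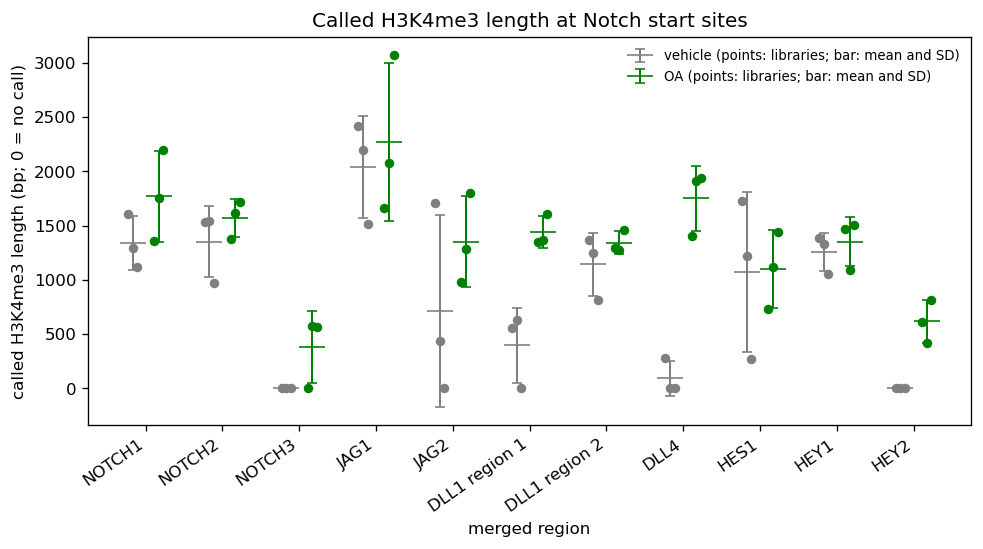
Called H3K4me3 length (bp, linear axis) in each merged region of the 10 genes, with 1 point per library (grey, vehicle; green, OA), and the mean and SD of the 3 libraries as a cross line and bar. The green points lie above all grey points at DLL1 region 1, DLL4 and HEY2 only.

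Among the receptors, NOTCH1 and NOTCH2 had H3K4me3 called at or just past the start site in every vehicle, OA and untreated library, and NOTCH3 did not. At NOTCH1 (chr9:136544640-136546866, hg38), which shares this region with the noncoding NALT1 and MIR4674, the called length was 1605, 1295 and 1120 bp with vehicle and 1357, 1756 and 2201 bp with OA. Its ranks were 91.2, 85.1 and 51.5 with vehicle and 69.1, 75.0 and 75.7 with OA. The groups overlapped in both measures, and the length difference of 0.37 (SE 0.23) on the log2 scale had an adjusted p of 0.761 by limma. That length difference ranged from 0.076 to 0.53 when each library was left out in turn. The overlap in rank rested on vehicle 3: without it every OA rank was below every vehicle rank, and the rank difference went from −2.71 to −14.9 percentile points (limma adjusted p 0.686). At NOTCH2 (chr1:120068291-120070127) lengths were 1535, 1548 and 975 bp with vehicle and 1374, 1614 and 1720 bp with OA, again overlapping. The NOTCH2 log2 length difference of 0.22 ranged from 0.019 to 0.33 when each library was left out in turn. The NOTCH2 start has near-identical NOTCH2NL copies on the same chromosome, so that reads may be split between them and its values are uncertain.

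NOTCH3 was the only receptor with no vehicle call. Its region, chr19:15200241-15200862, lay 133 bp inside the gene from the canonical start and was called in OA 2 (576 bp, rank 31.5) and OA 3 (567 bp, rank 16.1), and in none of OA 1, the vehicle or the untreated libraries. These peaks stood on pileups of 25 and 17 reads. The groups overlapped at 0. The region was kept only through these OA calls, so that its higher mean length with OA is a description. No receptor had an H3K27me3 region at a start site.

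The ligands held 2 of the 3 regions whose groups were apart. JAG1, a Jagged ligand, had the longest member region (chr20:10671807-10674968, 3162 bp, at the 99.3 percentile of all H3K4me3 regions by length). Its called lengths were 2416, 2198 and 1516 bp with vehicle and 1660, 2082 and 3078 bp with OA, and its ranks 82.8, 67.3 and 58.7 against 89.1, 83.9 and 72.4. Both measures overlapped between groups. The log2 length difference was 0.13 (SE 0.26) and was −0.063 without vehicle 3. JAG2 (chr14:105167071-105169181) was called in vehicle 1 and 2 (1709 and 434 bp), not in vehicle 3, and in all OA libraries (980, 1283 and 1801 bp). The mean was 714 ± 888 bp with vehicle and 1355 ± 415 bp with OA (SD, n = 3), and the groups overlapped, with a limma adjusted p of 0.761. These means rest on the 0 of vehicle 3, without which the log2 length difference went from 1.63 to 0.53 and the rank difference from 21.2 to 6.67 percentile points.

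DLL1, a Delta-like ligand, had an H3K4me3 region just downstream of its canonical start (chr6:170289437-170291044). There the called length was 560, 632 and 0 bp with vehicle and 1346, 1367 and 1608 bp with OA, so that the shortest OA call was longer than any vehicle call. The recovered pileup, the number of reads stacked at the summit, was 19 and 10 in vehicle 1 and 2 and 24, 37 and 73 with OA. The ranks lay closer together, at 34.5, 8.36 and 0 with vehicle and 35.2, 37.1 and 51.8 with OA. On the log2 scale the length difference was 2.08 (SE 0.71), with an unadjusted limma p of 0.0168 and an adjusted p of 0.598. The exact permutation test over the libraries gave p = 0.1, the smallest that 3 against 3 allows. Without the shallow vehicle 3 the length difference was 1.14, with an adjusted p of 0.261. It passed the adjusted limma threshold only where regions of any library were kept, as did 0.423% of all regions. The second DLL1 region, at an alternative start shared with the divergent gene FAM120B (chr6:170305992-170307528), was called in every library, at 1367, 1250 and 813 bp with vehicle and 1292, 1278 and 1464 bp with OA. Its log2 length difference of 0.24 ranged from 0.035 to 0.38 when each library was left out in turn.

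DLL4, the Delta-like ligand best known from sprouting vessels, showed the largest length difference of the 11 regions. Its region, chr15:40928074-40930099, covers the promoter printed above. H3K4me3 was called over 277 bp in vehicle 1 and not in vehicle 2 or 3, and over 1410, 1917 and 1936 bp in OA 1, 2 and 3. The ranks were 19.8, 0 and 0 against 23.7, 32.0 and 47.2, and the pileup was 12 reads in vehicle 1 against 21, 41 and 65 with OA. Mean called length was thus 92.3 ± 160 bp with vehicle and 1754 ± 298 bp with OA (SD, n = 3). The log2 length difference was 3.56, and it was 3.24 without vehicle 3 and 3.56 with an equal number of peaks per library. With 1 vehicle call the region was kept only through its OA calls, so that this difference is a description. Its length passed the adjusted limma threshold only where regions of any library were kept, as did 0.423% of all regions. The untreated libraries had no DLL4 call.

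**Figure D3:**
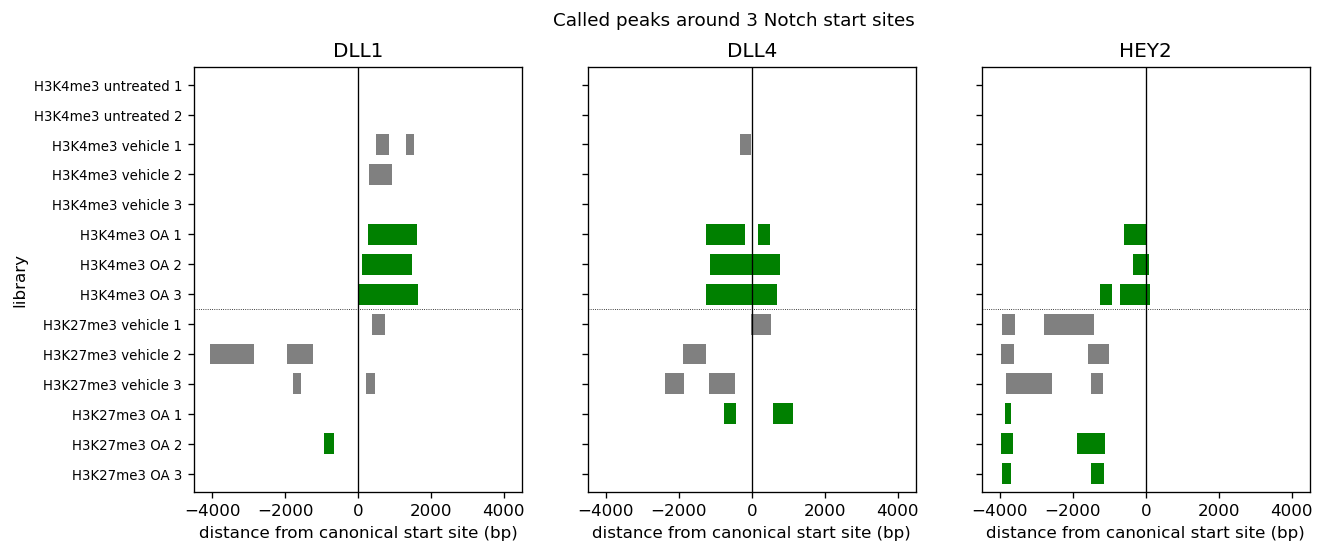
Called peaks on either side of the canonical start site (vertical line; upstream to the left) of DLL1, DLL4 and HEY2, with 1 row per library (gold, untreated; grey, vehicle; green, OA). Above the dotted line are H3K4me3 libraries and below it H3K27me3 libraries. At DLL4 and HEY2 all 3 OA libraries have green H3K4me3 bars around the start, with a gap over the start itself in OA 1 at DLL4. Vehicle has 1 short grey H3K4me3 bar at DLL4 and none at HEY2.

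Of the targets, HES1 and HEY1 were called in all 6 libraries and HEY2 with OA alone. HES1, a transcriptional repressor and the textbook Notch target, had its region at chr3:194136445-194138210, beginning 297 bp past the start base. No library had an H3K4me3 call over the promoter printed above. Lengths were 1724, 1225 and 268 bp with vehicle and 736, 1122 and 1446 bp with OA, and ranks 55.4, 52.8 and 24.3 against 41.8, 43.0 and 50.1. The rank difference was 0.83 percentile points (SE 11.6) and was −9.10 without vehicle 3, where the log2 length difference went from 0.28 to −0.42. HEY1 (chr8:79767289-79768791) had lengths of 1387, 1333 and 1056 bp with vehicle and 1468, 1091 and 1503 bp with OA, a log2 difference of 0.094 that was −0.018 without vehicle 3. Without vehicle 3 the HEY1 rank difference went from 8.49 to 13.8 percentile points. Every OA rank was then above every vehicle rank, as in 11.7% of all regions. With all 6 libraries both targets overlapped between groups in length and rank.

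HEY2, a repressor of the same family, was the only member with H3K4me3 in every OA library and in no vehicle or untreated library. Over all H3K4me3 regions, 345 of 18734 were called in every OA and in no vehicle library. Its region, chr6:125748938-125749753, spans the start site and shares it with the antisense HEY2-AS1 annotation. It was called over 617, 423 and 816 bp in OA 1, 2 and 3, at ranks of 26.4, 13.2 and 39.1 and on pileups of 15, 10 and 32 reads. The weakest of these stood near the floor of what was called, so absence in the vehicle libraries means no call at their depth. The region was kept only through its OA calls, which fixes the direction of its difference, so that the log2 length difference of 2.81 is a description. It was 2.81 also without vehicle 3. At an equal number of peaks per library the rank difference went from 26.2 to 13.7 percentile points.

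**Figure D4:**
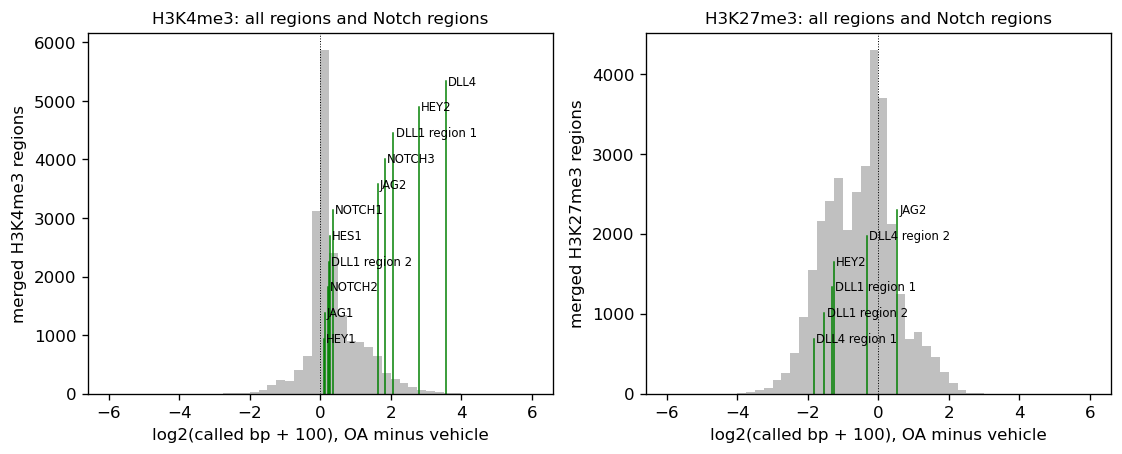
Distribution of the OA minus vehicle difference in log2(called bp + 100) over all merged regions (grey bars, 0.25 wide) of H3K4me3 (left) and H3K27me3 (right), with each member region as a green line whose height only spaces the labels. DLL4 at 3.56 and HEY2 at 2.81 lie in the far right tail of H3K4me3, both kept only through their OA calls, and 5 of 6 H3K27me3 members lie left of 0. Of these H3K27me3 members, both DLL1 regions and the first of DLL4 were kept only through their vehicle calls.

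The position of H3K4me3 within a region was examined after the values had been seen, at the 6 member regions called in all 6 libraries. The summit of the strongest peak did not overlap between groups in 2 of them, JAG1 and HEY1, beside 12.7% of the 11071 regions called in all 6 libraries. At JAG1 it lay 536, 444 and 542 bp past the start base with vehicle and 1189, 1337 and 1204 bp past it with OA. At HEY1 it lay 667, 663 and 665 bp before the start base with vehicle and 179, 225 and 225 bp past it with OA. These shifts of 736 and 875 bp were at the 98.4 and 99.1 percentiles of all such regions by size, where the median was 83.3 bp. Each gave an exact permutation p of 0.1, the smallest possible. The untreated libraries had summits 609 and 1311 bp past the JAG1 start, and 132 bp before the HEY1 start in the 1 untreated library that called it. Called length overlapped at both genes, and the HEY1 region lies also within 3 kb of LINC01607.

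**Figure D5:**
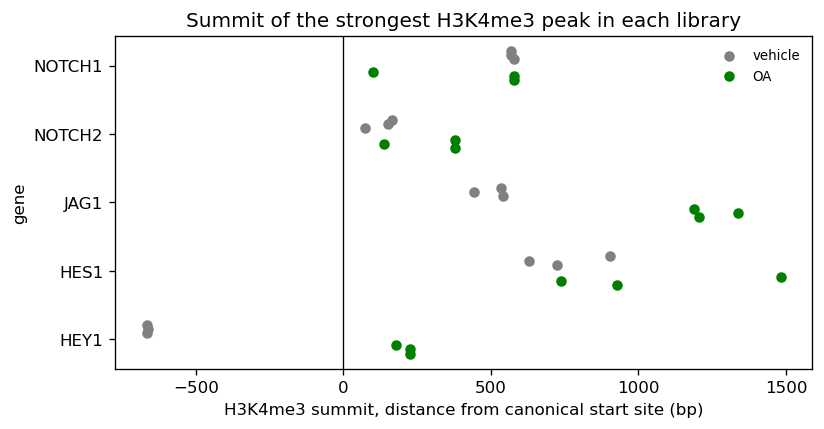
Distance (bp) of the H3K4me3 summit from the canonical start site (vertical line; positive is downstream) in each library (grey, vehicle; green, OA) for the 5 genes called in all 6 libraries at their canonical start. Grey and green points are separate at JAG1 and HEY1 and overlap at NOTCH1, NOTCH2 and HES1.

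Merged H3K27me3 regions lay at JAG2, DLL1, DLL4 and HEY2 and at no other member, 4 of 10 beside 13.8% of all protein-coding genes and 9.80% of the other pathway genes. These same 4 genes also carried H3K4me3 in at least 2 libraries, so that 4 of the 10 members had both marks, beside 4.73% of all protein-coding genes and 3.92% of the 51 other pathway genes. This count pools the conditions: HEY2 H3K4me3 was called with OA alone, and both DLL1 H3K27me3 regions and the first of DLL4 with vehicle alone. Of the 6 H3K27me3 member regions, 3 lay within 1 kb of a start site, 2 were left at an equal number of peaks per library and 0 with peaks of q at most 1e-05. The marks were measured in separate libraries, so the values do not tell whether both sat on the same molecules. Across all 32643 merged H3K27me3 regions, 0 passed the adjusted limma threshold for rank (0.0%) and 0 for length (0.0%). At an unadjusted p of 0.05, 399 (1.22%) and 667 (2.04%) of all regions were below it, and 0 of the 6 member regions for either measure. The groups overlapped in all 6 member regions. Over all regions every OA library was above every vehicle library in 0.686% (rank) and 0.481% (length), and below in 5.12% and 5.59%. Leaving out a library and merging again left 3 to 6 member regions. Without vehicle 1, every OA library was below in 3 of 5 for rank (24.7% of all regions) and 3 of 5 for length (26.1%). Without vehicle 2 it was 1 of 4 for rank (12.4%) and 2 of 4 for length (12.8%), without vehicle 3 it was 1 of 3 for each (15.3% and 17.0%), and without OA 2 it was 1 of 6 for length (10.4%). The median member difference was −1.28 on the log2 length scale, and it was −0.42 over all regions. Both DLL1 regions and the first of DLL4 were kept only through vehicle calls, which fixes the direction of their differences. The member median is thus a description.

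HEY2 was the only member with H3K27me3 in all 6 libraries (1 of 10 members, beside 1.49% of all protein-coding genes). The region, chr6:125745655-125748628, ends 1004 bp before the canonical start and covers an alternative HEY2 start and HEY2-AS1. Called length was 1729, 927 and 1593 bp with vehicle and 180, 1111 and 589 bp with OA. Ranks were 86.9, 77.3 and 51.9 against 79.6, 65.7 and 56.3. The mean rank over 6 libraries stood at the 97.4 percentile of all H3K27me3 regions. Its length difference of −1.26 (SE 0.85) on the log2 scale had an adjusted p of 0.529 by limma, and the groups overlapped. This difference ranged from −1.74 to −0.69 when each library was left out in turn. Both the direction and the calls in all 6 libraries depended on how many peaks were counted. At an equal number of peaks per library the length difference was 1.06 and no member was called in all 6 libraries. With peaks within 5 kb joined the length difference was 0.19. The paper reports H3K27me3 peaks enriched in control cells by a differential binding test, and lists HEY2-AS1 among their associated genes. Whether that peak is the region described here was not tested. Called length and rank are other measures, so the overlap here does not show that H3K27me3 at HEY2 was unchanged.

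DLL1 had 2 H3K27me3 regions and DLL4 had 2, all with calls in few libraries. At DLL1, chr6:170290345-170290850 was called in vehicle 1 (360 bp) and vehicle 3 (227 bp), and chr6:170292320-170293013 in vehicle 2 (694 bp) and vehicle 3 (203 bp). Neither was called with OA. Summed over all calls within 3 kb of the canonical start, a measure added after the values had been seen, DLL1 H3K27me3 covered 360, 845 and 430 bp with vehicle and 0, 252 and 0 bp with OA, with every OA value below every vehicle value. The same order held at 10.4% of the 2301 protein-coding genes with such calls in at least 2 libraries, and at none of the other 9 members. DLL1 met that limit only through its vehicle calls, so that its order is a description. At DLL4, chr15:40926966-40928074 was called in vehicle 2 (616 bp) and vehicle 3 (522 bp), and chr15:40928159-40928898 in vehicle 3 (714 bp) and OA 1 (316 bp). Vehicle 1 had a DLL4 call of 559 bp over the canonical start itself. OA 1 had a further call 578 to 1127 bp past the start. Each of these lay in 1 library and entered no merged region, but both count in the sum below. The summed DLL4 values were 804 ± 375 bp with vehicle and 289 ± 500 bp with OA (SD, n = 3) and overlapped. JAG2 had 1 region, chr14:105170663-105171514, called in vehicle 1 (208 bp) and OA 1 (852 bp). The number of H3K27me3 peaks called in a library varied from 9091 to 47648. With an equal number of peaks per library, 2 of these 6 member regions were left, DLL1 region 2 and HEY2, and the groups overlapped in both.

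The other 51 genes of the pathway, from modifiers to nuclear cofactors, had 57 H3K4me3 and 6 H3K27me3 regions. None passed the adjusted limma threshold for either mark and measure. At an unadjusted p of 0.05, 6 of the 57 H3K4me3 regions were below it for rank and 2 for length, beside 11.5% and 5.46% of all regions. HES3 and TLE3 region 2 among those for rank, and NEURL1 and HES3 for length, were kept only through OA calls. These counts are thus a description. Of the 6 H3K27me3 regions 0 were below this p for rank and 1 for length, the second DTX1 region, beside 1.22% and 2.04%. That region was kept only through its vehicle calls, so that this count too is a description. H3K4me3 was present in all 6 libraries at 34 of the 51 genes (66.7%, beside 56.5% of all protein-coding genes), including all 9 genes of receptor cleavage, such as ADAM10 and ADAM17, and all 7 corepressors. Length was higher on average with OA in 45 of the 57 regions (78.9%, beside 74.1% of all regions), with a median log2 difference of 0.24. Every OA library ranked above every vehicle library in 4 regions (DLK2, a noncanonical ligand, TLE1, a corepressor, and DTX4 and NEURL1, both ubiquitin ligases) and below in 1, that of RBPJ, beside 10.1% and 4.52% of all regions. RBPJ ranks were 77.6, 75.2 and 87.2 with vehicle and 55.7, 71.4 and 62.1 with OA, a difference of −16.9 percentile points (SE 9.01) with a limma adjusted p of 0.475. For length, OA was above in 4 regions (MAML3 region 2, TLE3 region 1, NEURL1 and HES2 region 2) and below in 0, beside 9.02% and 0.448% of all regions. NEURL1 had no vehicle call and was kept only through its OA calls, so that it could enter both counts in 1 direction alone. In H3K27me3 every OA library was below every vehicle library in 2 of the 6 regions for rank (DTX1 region 2 and NEURL1) and in 2 for length (both DTX1 regions), and above in 0. These DTX1 and NEURL1 regions were kept only through their vehicle calls, so that both counts are a description. Over all H3K27me3 regions the order below held in 5.12% for rank and 5.59% for length, and without vehicle 1 in 24.7% and 26.1%.

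NEURL1, which acts on Delta-like and Jagged ligands, had H3K4me3 called over 235, 304 and 1048 bp in OA 1, 2 and 3 and in no vehicle library. The ranks were 5.17, 1.26 and 41.9, on pileups of 11, 6 and 39 reads, so that the calls in OA 1 and 2 were among the weakest of their libraries. Its H3K27me3 region was called over 387, 713 and 475 bp with vehicle and in OA 1 alone with OA (646 bp). DTX1, a Notch-regulating ubiquitin ligase and known Notch target, had no H3K4me3 region, and its second H3K27me3 region was called over 916, 942 and 730 bp with vehicle and in no OA library, so that it was kept through vehicle calls alone. HES3 was the other pathway gene with both marks, and DLL3 and DTX3 had H3K27me3 alone. No region of either mark was found for DLK1, MFNG, RBPJL, HES5 and HEYL, a group of 5 (9.80% of the 51, beside 24.0% of all protein-coding genes) that holds 2 of the 8 further targets.

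The genes most like DLL1, DLL4 and HEY2 were sought by the distance between their 6 H3K4me3 ranks, over 13333 protein-coding genes outside the pathway. For DLL4 they were PDLIM3 (distance 1.81), PCSK5 (1.85) and N4BP3 (6.60), where the median gene was at 122 percentile points. RASGEF1C (3.49), SUSD4 (3.71) and ELFN2 (3.89) were nearest to HEY2, where the median was 138. MAGEE1 (6.88), DLX4 (8.68) and MGLL (9.41) were nearest to DLL1, where the median was 106. The 6 libraries are shared by all these genes, so that likeness describes these libraries.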

How the data were processed

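CUT&RUN peak lists of 16 libraries (H3K4me3, H3K27me3 and IgG) were used on hg38. Per the methods and the submitters' processing notes, H3K4me3 peaks were called with MACS2 2.2.7.1 and H3K27me3 peaks with SICER. The H3K27me3 files have the layout of MACS2 broad peaks, so their caller is uncertain. DiffBind 3.9 and ChIPseeker 1.8.6 are named for steps not used here. The deposited files hold, per peak and library, a fold enrichment (a ratio, column 7), a −log10 p (column 8) and a −log10 q (column 9). Read counts are not in these files, so depth is unknown beyond the recovered background. All deposited H3K4me3 peaks had q of at most 0.00998 and H3K27me3 peaks q of at most 0.1. The authors' normalization and control for the fold values are not given in the sources used here. Peaks on contigs outside the main chromosomes (0.399% to 2.27% of a library) were left out, and 0 columns belonged to unmapped samples.

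Peaks of the 6 vehicle and OA libraries of a mark were joined on any overlap of 1 bp or more, and a joined region was kept when at least 2 libraries called it. Rank (percentile of column 8 within the library, 0 without a call) and log2(called bp + 100) were tested with limma 3.58.1 (trend, robust; R 4.3.3), with Benjamini-Hochberg adjustment over all regions. Pileups were solved from fold and p as MACS2 computes them. Samples were grouped by the labels, which give replicate numbers. The paper's methods describe the CUT&RUN cultures as biological triplicates. Python 3.11.15, scipy 1.17.1 and matplotlib 3.10.9 served for exact permutation tests (two-sided) and figures. The fit was tested on simulated data. The pileup recovery, the called length around the canonical start and the summit positions were added after the data had been seen. Some listed genes are not reported here. The members and lists were chosen with earlier results of these data known. Named genes were the 10 members, plus pathway genes whose region passed a test, had groups that did not overlap, carried both marks or had no call, and for each member with groups apart in H3K4me3 rank the 3 genes nearest in rank. Genes named as examples of a role, and CACGCG and CACGTG as motifs, come from the same fixed lists. Alternatives were stricter or equal numbers of peaks, regions of any library or of all 6, a 1 kb window, other ranks, pseudocounts (10 bp) and centring, joining of H3K27me3 peaks within 5 kb, removal of IgG regions, a replicate block and leaving out each library.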

Additional observations from a re-analysis of the deposited data

Results flagged for a closer look

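Signal lay outside the treated comparison, in the untreated H3K4me3 libraries. Untreated replicate 1 had an H3K4me3 peak within 3 kb of a start site at 6 of the 10 genes (NOTCH1, NOTCH2, JAG1, DLL1, HES1 and HEY1), and untreated replicate 2 at 5 (the same without HEY1), where each IgG library had 0. Of all protein-coding genes 53.2% and 48.9% had such a peak in the 2 untreated libraries, and 1.11% and 0.12% in the IgG libraries. Neither untreated library called NOTCH3, JAG2, DLL4 or HEY2. They held 12924 and 11242 peaks, fewer than any vehicle or OA library of the mark. Their lowest shared background, the stand-in for depth, was 0.941 and 0.947 reads, higher than in any vehicle or OA library. Peak number and this stand-in thus did not go together here.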

How the results depend on the processing

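No member region of either mark passed the adjusted limma threshold for rank under any alternative run, and for length 2 H3K4me3 regions did under 1 alternative: with regions of any library kept (13 member regions), DLL4 (adjusted p 0.000316515) and DLL1 at its canonical start (0.0133123) passed, where the planned fit gave 0. Of all 28846 regions 122 (0.423%) passed under it. That alternative adds regions called in 1 library to the estimate of spread. The adjusted p for DLL4 length was between 0.152 and 1.00 under its other alternatives, where OA calls were needed to keep the region. Regions with every OA library above in H3K4me3 rank numbered 5 of 11 with peaks of q at most 1e-05 (11.2% of all regions). H3K27me3 length below in every OA library held in 1 of 4 regions with peaks within 5 kb joined (6.3% of all regions). HEY2 lost its place as the gene with H3K27me3 in all 6 libraries at q of at most 1e-05 and at equal numbers of peaks (0 genes each). Leaving out 1 library gave counts of 3 to 5 for H3K4me3 rank above, 0 to 2 for rank below, 3 to 6 for length above, and 0 to 3 for H3K27me3 below in rank and in length. The cause was not tested, beyond that fewer libraries make separate groups easier to reach.

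Direction turned in these single values, none of them called. At equal numbers of peaks the rank difference was −4.95 for HES1 and 4.85 for HEY2 H3K27me3, whose log2 length difference was 1.06. Ranked by fold, JAG1 was −3.77, HES1 −12.0 and HEY2 H3K27me3 4.54. Centred lengths gave −0.016 for JAG1, −0.051 for HEY1 and 0.072 for DLL4 H3K27me3 region 2, and joined peaks gave 0.19 for HEY2 H3K27me3. Over the fits that each left out 1 library, rank ranged from −14.9 to 4.95 for NOTCH1, −11.2 to 7.72 for NOTCH2, −9.10 to 6.44 for HES1, −42.8 to 14.9 for HEY2 H3K27me3 and −7.73 to 5.57 for DLL4 H3K27me3 region 2. Log2 length ranged from −0.063 to 0.32 for JAG1, −0.42 to 0.74 for HES1, −0.018 to 0.23 for HEY1 and −0.83 to 0.020 for DLL4 H3K27me3 region 2. Of the other single values, 286 for H3K4me3 and 119 for H3K27me3 kept direction and side.

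Whether replicate numbers pair the samples was not settled, and the main tests were unpaired. Between samples of the same number, correlations of deviations in H3K4me3 rank were 0.151, 0.236 and −0.197 for numbers 1, 2 and 3. In length they were 0.0621, 0.206 and −0.115, and in H3K27me3 they lay between 0.0285 and 0.0932. The best H3K4me3 partner had the same number for 1 and 2 in rank and for 2 alone in length. Every H3K27me3 sample correlated best with its own number, a hint from the data and not from the design. With the replicate block, 0 member regions passed in either mark or measure, as without it. Vehicle 3 had the lowest recovered H3K4me3 background and OA 3 the fewest H3K27me3 peaks, and their part in missing calls was not tested. A missing call does not show that a mark was absent.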

Other observations

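Inside the genes but over 3 kb from a start site, 3 more regions were found. An H3K4me3 region within NOTCH3 (chr19:15195218-15195932, 5063 bp from the canonical start) was called in OA 2 (256 bp) and OA 3 (715 bp) and in no vehicle library, the same libraries that called its start. A DLL1 region (chr6:170295679-170296236) was likewise called in OA 2 (384 bp) and OA 3 (558 bp) alone. It lay 4601 bp upstream of the canonical start, and inside the gene only as counted from the alternative start.

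HEY2 had a second H3K27me3 region (chr6:125755098-125756311) in all 6 libraries, beginning 5466 bp from the canonical start. Called length was 793, 857 and 1186 bp with vehicle and 671, 536 and 349 bp with OA, and every OA value was below every vehicle value, beside the 5.59% of all H3K27me3 regions given above. Its ranks were 81.8, 84.2 and 85.7 with vehicle and 85.9, 47.1 and 53.6 with OA, and overlapped (limma adjusted p 0.868). Length did not pass the adjusted limma threshold either. At HEY1 a single H3K27me3 call of 769 bp lay within 3 kb of the start in OA 1 and in no other library, so that it entered no merged region.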
